A study of Chlorella sorokiniana with 6 samples.

Results

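Proton pumps and ion transporters of the green alga *Chlorella sorokiniana* were compared between mixotrophic and normal cultures by RNA sequencing. They were taken as every transcript of the count table that the authors had placed in 1 of 6 classes of the MapMan plant annotation, a scheme that sorts plant genes into functional bins. The classes were the P- and V-ATPases (32 transcripts), transporters of unspecified cations (39), of potassium (19), of unspecified anions (13) and of calcium (10), and the channels gated by cyclic nucleotides or passing calcium (14). This gave 127 of 18310 transcripts, which came from 64 components of the de novo assembly. A component groups sequences that the assembler could not separate, so its transcripts can share reads and are not independent.

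Mixotrophic cultures received light at 100 µmol photons and 2% glucose, and normal cultures were kept at 10 µmol photons with 0% glucose. All were grown in Bold's Basal Medium at 27 °C, and the study's methods give 7 days of treatment. Light and glucose were changed together, so their parts cannot be told apart. There were 3 libraries per condition, numbered here mixotrophic replicates 1 to 3 and normal replicates 1 to 3. The study's methods name a single strain, NIES-2168, whereas the labels carry a different NIES number for each library, NIES-2168, NIES-2169 and NIES-2170 for normal replicates 1, 2 and 3 and NIES-2171, NIES-2172 and NIES-2173 for mixotrophic replicates 1, 2 and 3. The study's own expression table lists replicates 2 and 3 of each condition, so a first fit used these 4 libraries and a second one all 6. Libraries held 2535461 to 4444858 counts. Levels are given as CPM, a transcript's counts relative to the library's TMM-scaled total, and fold changes as log2 of mixotrophic over normal. With no transcript lengths in use, levels were compared between libraries for 1 transcript and never between transcripts. In bulk RNA, fewer expressing cells and less RNA per cell cannot be told apart.

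The normal library of replicate 1 stood apart from the other normal libraries for many transcripts, and its values are given beside each result. A group of 892 transcripts, 4.87% of all, was low in replicate 1 of both conditions. It summed to 836, 13740 and 19065 CPM in mixotrophic replicates 1, 2 and 3 and to 739, 22179 and 15394 CPM in normal replicates 1, 2 and 3. Of the 127 transporters, 4 belonged to it. Light-harvesting complex transcripts, taken as markers of the alga, summed to 14452, 15384 and 16206 CPM in mixotrophic replicates 1, 2 and 3. In normal replicates 1, 2 and 3 they summed to 10687, 9542 and 9297 CPM. Of these 32 transcripts, 7 were in the group low in replicate 1, and the sums do not by themselves establish algal identity. Transcripts of the phenylpropanoid bin, a pathway best known from land plants, summed to 599.6, 1173 and 1403 CPM in mixotrophic and 307, 1548 and 1259 CPM in normal replicates 1, 2 and 3, and 32 of its 45 transcripts were in the group low in replicate 1. The part of this group in the transporter results was not tested.

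Proton pumps store energy as a proton gradient across a membrane, and secondary transporters draw on that gradient to move sugars, ions and other solutes. In plants and green algae a P-type ATPase, a single polypeptide, pumps protons out across the plasma membrane. The V-ATPase is a rotary complex that acidifies vacuoles and other endomembrane compartments. Its V1 sector, outside the membrane, splits ATP, and its V0 sector, within the membrane, carries the protons. In *Chlorella kessleri*, a relative, glucose is known to enter the cell by symport with protons.

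No read was counted for 24 of the 127 transcripts in any library, and 89 had enough counts to be tested over 4 libraries. Mixotrophic cultures had 25 of these at a higher and 35 at a lower level (edgeR's quasi-likelihood test, Benjamini-Hochberg adjusted p under 0.05). Over all 12389 transcripts tested, 28.6% were higher and 29% lower by the same call. The median log2 fold change of the 89 was -0.08, beside -0.02 over all transcripts. Over 6 libraries, 14 of 88 were higher and 14 lower, with 13.3% of all 12318 transcripts tested higher and 15.2% lower. All 28 of these had been called in the same direction over 4 libraries, and no transporter was called in opposite directions. With the replicate number as a block the counts over 6 libraries were 6 higher and 7 lower, beside 9.97% and 10.5% of all transcripts tested in that fit. Leaving out normal replicate 1 raised the counts of the second fit to 27 higher and 35 lower (27.8% and 28.2% of all transcripts). Leaving out mixotrophic replicate 2 gave 3 and 2 (5.13% and 5.58% of all), as did leaving out mixotrophic replicate 3 (5.40% and 5.36%). Without mixotrophic replicate 1 they were 5 and 3 (5.32% and 5.83%), without normal replicate 2 they were 9 and 8 (8.53% and 9.93%), and without normal replicate 3 they were 7 and 5 (7.84% and 8.74%).

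The classes differed in the direction of their calls. The P- and V-ATPases had 14 higher and 2 lower of 21 tested over 4 libraries (median log2 fold change 0.45), and 12 higher and 0 lower of 20 over 6 (median 0.43). Transporters of unspecified cations had 5 higher and 15 lower of 36 (median -0.12), and 0 and 9 over 6 libraries (median -0.44). Potassium transporters had 4 higher and 4 lower of 10 (median -0.05), and 0 and 2 over 6 (median -0.76). Transporters of unspecified anions had 1 higher and 9 lower of 12 (median -0.50), and 1 and 0 over 6 (median -0.36). Calcium transporters had 1 higher and 5 lower of 8 (median -0.53), and 1 and 3 over 6 (median -0.38). The P- and V-ATPases were thus the class in which most calls were higher, and in the cation, anion and calcium classes most calls over 4 libraries were lower. These shares were not tested against each other or against all transcripts.

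**Figure D1:**
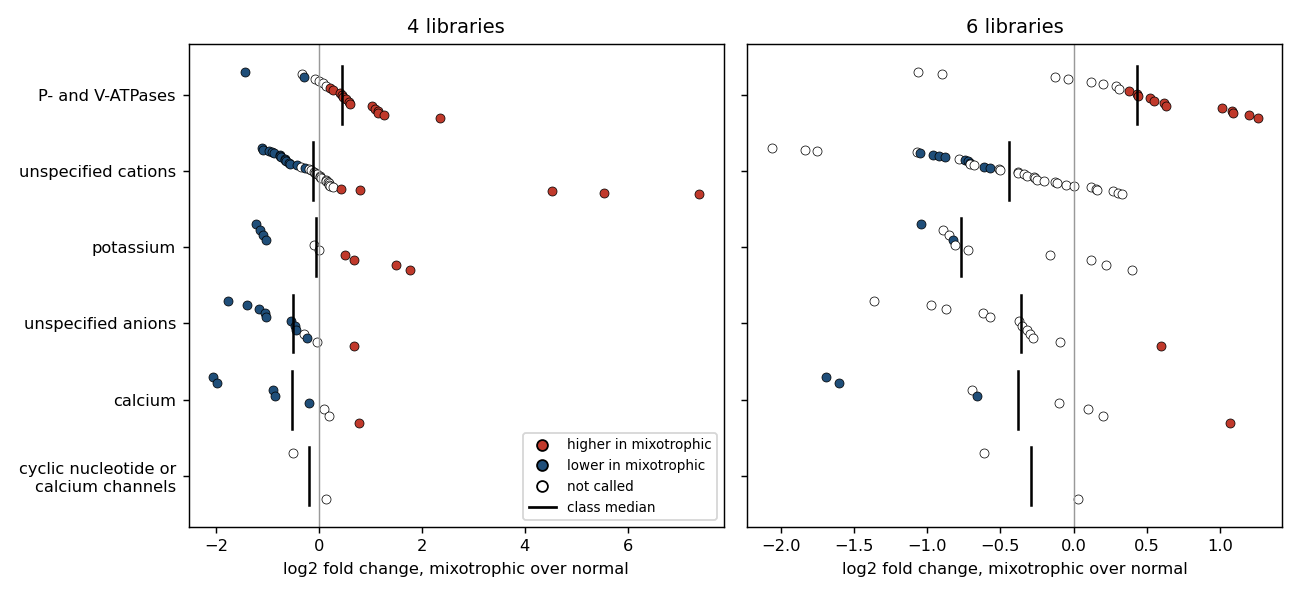
Log2 fold change (mixotrophic over normal, horizontal axis) of each tested transporter by MapMan class (vertical axis), fitted over 4 libraries on the left and over 6 on the right, on different scales. Each point is a transcript, red where called higher, blue where called lower and white where not called, and the black line is the class median, 0.45 over 4 and 0.43 over 6 libraries for the P- and V-ATPases. The 3 points farthest to the right over 4 libraries belong to the DUR3 component, and that of g11345, with no count in normal replicates 2 and 3, depends on the prior count of the fit.

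Transcripts of the V-ATPase made up 12 of the 14 P- and V-ATPases called higher. The 24 V-ATPase transcripts came from 12 components, and 14 were tested over 4 libraries, of which 12 were higher by 0.28 to 1.26 log2 units and 0 lower. Over 6 libraries the same 12 were higher, of 13 tested, by 0.38 to 1.26 log2 units. In each of the 12 the lowest mixotrophic library lay above the highest normal one, while 24.1% of all tested transcripts were separated in this direction. In the fit over 6 libraries with the replicate number as a block, 5 of the 12 were called, beside 9.97% of all transcripts called higher. These were g2165, g228, g230, g4028 and g4030. For the 13 tested transcripts, normal replicate 1 lay -0.49 to 0.25 log2 units from the range of normal replicates 2 and 3. The 12 lay in 8 components, of the 10 V-ATPase components with a tested transcript over 4 libraries.

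In the V1 sector, subunit A, the catalytic subunit that binds ATP, changed most. Its transcript g2165 had 561, 586 and 596 CPM in mixotrophic replicates 1, 2 and 3 and 297, 285 and 293 CPM in normal replicates 1, 2 and 3. All mixotrophic libraries lay well above all normal ones, and the 3 normal libraries lay close together. The log2 fold change was 1.03 ± 0.058 (SE, adjusted p = 3.18e-15) over 4 libraries and 1.01 ± 0.081 (adjusted p = 0.00134) over 6. Subunit B, which alternates with A in the headpiece, had g18159 at 524, 513 and 566 CPM in mixotrophic replicates 1, 2 and 3, against 377, 401 and 415 CPM in normal replicates 1, 2 and 3. The conditions did not overlap, and the change was smaller than that of A, 0.40 ± 0.058 (adjusted p = 8.11e-07). Subunits A and B are both parts of the ATP-splitting headpiece.

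Among the stalk subunits of V1, the central shaft subunit D and its partner F and the peripheral stalk subunit E were also higher. The pair of transcripts of D had log2 fold changes of 0.45 (g12153) and 0.60 (g12154) over 4 libraries. One of them, g12154, had 82.5, 84.7 and 89.7 CPM in mixotrophic replicates 1, 2 and 3 and 61.6, 56.5 and 58.7 CPM in normal replicates 1, 2 and 3. Subunit F had 0.46 (g3758) and 0.58 (g3760), and g3758 was not called over 4 libraries with the replicate block (adjusted p = 0.066). Over 4 libraries DESeq2 called neither transcript of F (adjusted p = 0.269 for g3758 and 0.131 for g3760) nor g12153 of D (adjusted p = 0.0524), and it called 4 of the V1 transcripts higher where edgeR called 7. Subunit E had g1681 at 277, 272 and 280 CPM in mixotrophic replicates 1, 2 and 3, against 189, 210 and 244 CPM in normal replicates 1, 2 and 3. Its conditions did not overlap, at a log2 fold change of 0.28 (adjusted p = 0.00108).

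Subunit C, a connector of the peripheral stalks, did not pass the test. Its transcript g14604 had 153, 162 and 158 CPM in mixotrophic replicates 1, 2 and 3, against 126, 135 and 156 CPM in normal replicates 1, 2 and 3, with a log2 fold change of 0.13 ± 0.081 (adjusted p = 0.168). Normal replicate 3 reached the mixotrophic range. A second component described as subunit E behaved differently from g1681. Its g17243 had 0.426, 2.70 and 3.91 CPM in mixotrophic replicates 1, 2 and 3 and 0, 6.23 and 2.36 CPM in normal replicates 1, 2 and 3, and together with g17242 it belongs to the group low in replicate 1 of both conditions. Its level was lowest in replicate 1 of both conditions, and the conditions were not called different over 4 libraries (log2 fold change -0.33, adjusted p = 0.585).

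In the V0 sector, 5 of 5 tested transcripts were higher in both fits. A pair of them is described as subunit C of an F0/V0 complex, a proteolipid of the proton-carrying ring. One of them, g228, had 114, 115 and 116 CPM in mixotrophic replicates 1, 2 and 3 and 48.2, 52.3 and 44.5 CPM in normal replicates 1, 2 and 3 (log2 fold change 1.26 ± 0.11, adjusted p = 5.28e-11). The other, g230, had a log2 fold change of 1.14 (adjusted p = 1.02e-10). In both transcripts every mixotrophic library held about the same level and every normal library a lower one. The proteolipid c transcripts g4028 and g4030 had 1.08 and 1.15 log2 units, with 19.2 to 27.1 CPM in mixotrophic and 8.31 to 12.8 CPM in normal libraries. Both were separated by condition. Summed with the other transcripts of their components, the proteolipid c component had 1.22 log2 units and the F0/V0 subunit C component 0.50 over 4 libraries.

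Subunit a, which forms the proton half-channels, had g15956 at 548, 567 and 545 CPM in mixotrophic replicates 1, 2 and 3 and 469, 382 and 394 CPM in normal replicates 1, 2 and 3. Normal replicate 1 was the highest normal library but lay below all mixotrophic ones (log2 fold change 0.52 ± 0.058, adjusted p = 7.35e-09 over 4 libraries, and 0.43 ± 0.11, adjusted p = 0.0377 over 6, or 0.0918 with the replicate block). Of the 7 transcripts of subunit d, g904 held at most 2.24 CPM and was not tested, and no read was counted for the others. Counts summed over all 12 transcripts of their component, whether of this class or not, were higher over 4 libraries (1.97 log2 units, adjusted p = 6.41e-12). For the 2 transcripts of subunit H, of V1, no read was counted. Counts summed over all 6 transcripts of their component were higher (1.41 log2 units, adjusted p = 5.72e-07). These counts came only from transcripts outside the 6 classes or without a class, so they give no level for subunit H. Together the 24 V-ATPase transcripts summed to 2567, 2612 and 2673 CPM in mixotrophic replicates 1, 2 and 3, against 1737, 1713 and 1784 CPM in normal replicates 1, 2 and 3.

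**Figure D2:**
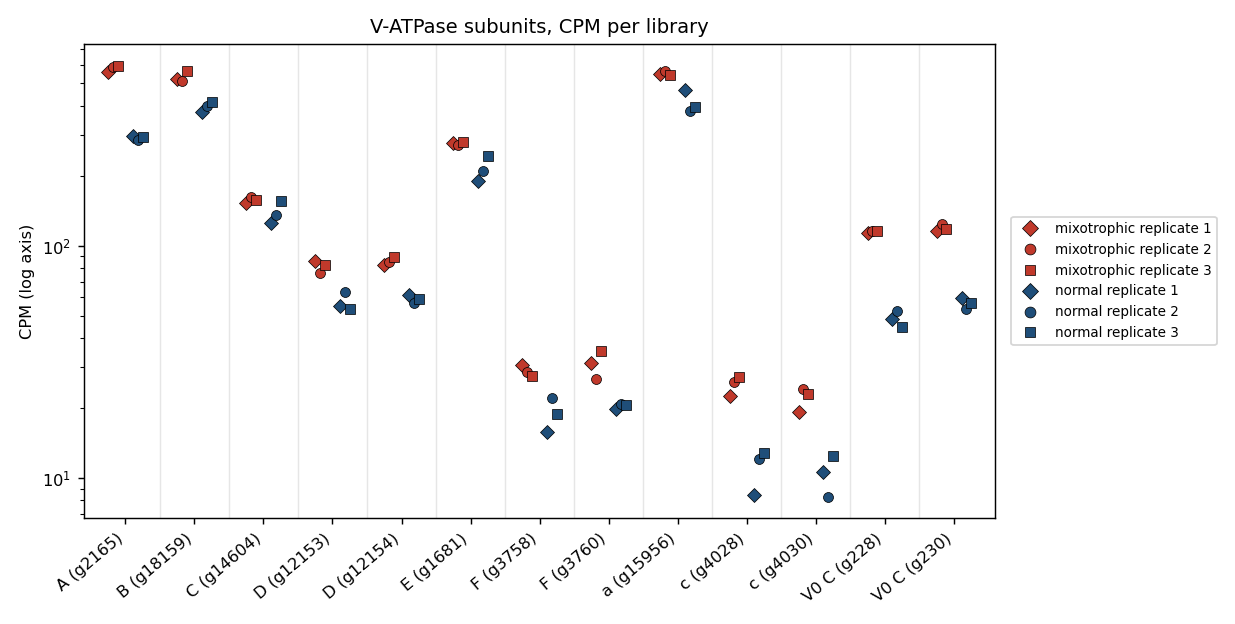
CPM (log axis) of the 13 V-ATPase transcripts tested over 6 libraries, by subunit, with mixotrophic libraries in red left of normal libraries in blue and replicate 1 as diamonds, 2 as circles and 3 as squares; V0 C is the transcript pair described as subunit C of an F0/V0 complex. The mixotrophic points lie above all normal points in 12 of the 13, as for subunit A (561 to 596 CPM against 285 to 297 CPM), and subunit C (g14604) overlaps.

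The P-type proton ATPases did not move together. Of 5 transcripts 4 were tested, with 2 higher and 2 lower over 4 libraries, and 0 of 4 called over 6. At an unadjusted p under 0.05, 0 were higher and 1 lower over 6 libraries, and DESeq2 called 0. Their summed level was 3055, 3226 and 3251 CPM in mixotrophic replicates 1, 2 and 3 and 3497, 3277 and 3251 CPM in normal replicates 1, 2 and 3, so the highest mixotrophic library was level with the lowest normal one. The members differed from each other.

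The transcript described by the Arabidopsis plasma membrane pump HA7, g1690, had 218, 220 and 227 CPM in mixotrophic replicates 1, 2 and 3. It had 1141 CPM in normal replicate 1, against 39.9 and 46.9 CPM in normal replicates 2 and 3. The mixotrophic libraries thus lay above normal replicates 2 and 3 and below normal replicate 1, which was 26.3 times the mean of the other normal libraries and 5.15 times the mixotrophic mean. The log2 fold change was 2.35 ± 0.095 (adjusted p = 1.15e-18) over 4 libraries and -0.90 ± 1.3 (adjusted p = 0.671) over 6, opposite in sign.

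The transcript described by HA4, g5742, departed in the other direction. It had 1584, 1714 and 1723 CPM in mixotrophic replicates 1, 2 and 3, against 1027 CPM in normal replicate 1 and 2127 and 2066 CPM in normal replicates 2 and 3. It was lower by edgeR over 4 libraries (-0.29, adjusted p = 5.86e-06) and not called over 6 (-0.04 ± 0.27, adjusted p = 0.952). Another pump, g11047, described by at2g18960, had 1248, 1290 and 1297 CPM in mixotrophic replicates 1, 2 and 3 and 1320, 1099 and 1129 CPM in normal replicates 1, 2 and 3. It was called higher over 4 libraries (0.21 ± 0.048, adjusted p = 0.000343), but normal replicate 1 exceeded every mixotrophic library. A low one, g18252, had 5.33, 2.70 and 4.19 CPM in mixotrophic replicates 1, 2 and 3 and 7.36, 9.55 and 9.11 CPM in normal replicates 1, 2 and 3. Its conditions did not overlap, with -1.44 (adjusted p = 0.00146) over 4 libraries and -1.06 (adjusted p = 0.0603) over 6.

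The flippase transcripts of the same class, P-type ATPases that turn phospholipids over between membrane leaflets and their ALIS partner subunits, were not called (3 tested). The translocase g17860 had a log2 fold change of -0.08 ± 0.059 (adjusted p = 0.242), and the ALIS5 hits g10283 and g10284 had 0.07 and 0.01. At an unadjusted p under 0.05, 0 of the 3 were higher and 0 lower over 4 libraries, and DESeq2 called 0.

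**Figure D3:**
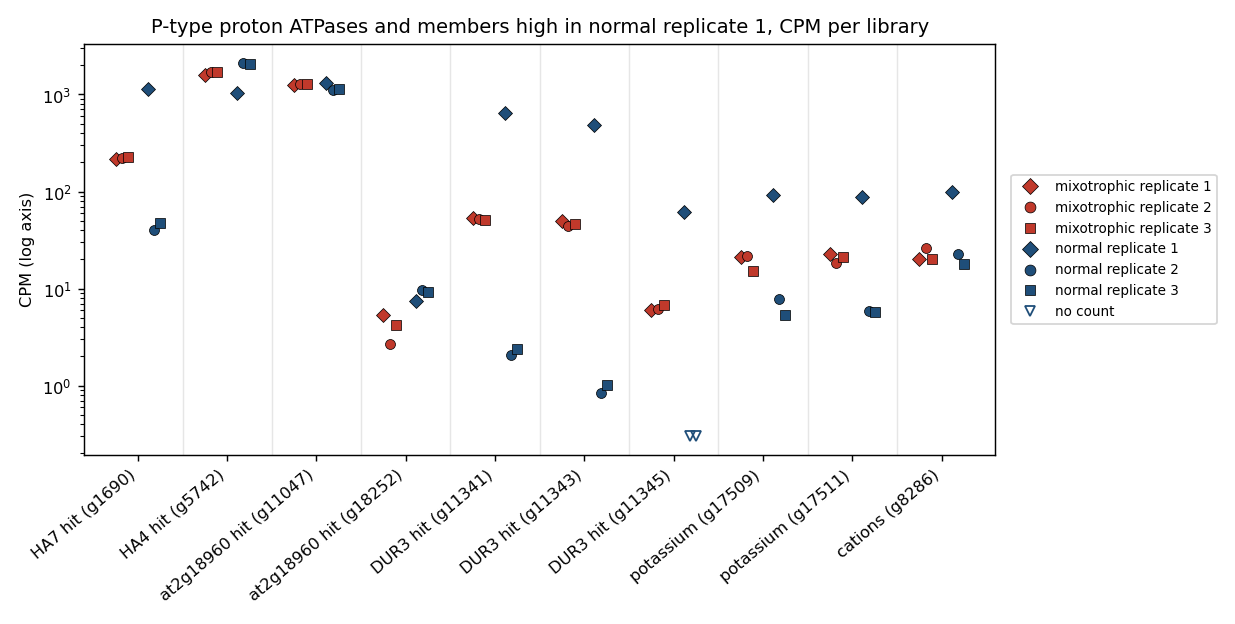
CPM (log axis) of the 4 tested P-type proton ATPase transcripts and of 6 further transporters for which normal replicate 1 stood far above the other normal libraries, with mixotrophic libraries in red left of normal libraries in blue, replicate 1 as diamonds, 2 as circles and 3 as squares. Open triangles mark libraries with no count and have no height on the axis. The DUR3 transcript g11341 has 51.1 to 52.8 CPM in mixotrophic libraries, against 644 CPM in normal replicate 1 and 2.08 and 2.36 CPM in normal replicates 2 and 3.

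The largest difference among the cation transporters was that of DUR3, a urea transporter that takes up urea with protons in Arabidopsis. Its 3 transcripts belong to 1 component and were all higher over 4 libraries and not called over 6. The transcript g11341 had 52.8, 52.6 and 51.1 CPM in mixotrophic replicates 1, 2 and 3, against 644 CPM in normal replicate 1 and 2.08 and 2.36 CPM in normal replicates 2 and 3. Normal replicate 1 stood at the top, normal replicates 2 and 3 at the bottom, and the mixotrophic libraries between them. From 397 counts in mixotrophic replicates 2 and 3, against 12 in normal replicates 2 and 3, the ratio over these 4 libraries was 23.2 (exact 95% interval 13.2 to 45.3, counting error only). The log2 fold change was 4.52 ± 0.26 (adjusted p = 4.33e-15) over 4 libraries and -2.06 ± 1.9 (adjusted p = 0.472) over 6.

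The other transcripts of DUR3 had the same order of libraries. For g11343 the levels were 49.2, 44.0 and 45.8 CPM in mixotrophic replicates 1, 2 and 3, against 488 CPM in normal replicate 1 and 0.831 and 1.01 CPM in normal replicates 2 and 3, which held 5 counts together. Its ratio over replicates 2 and 3 was 48.2 (20.4 to 149). For g11345 they were 5.97, 6.14 and 6.71 CPM in mixotrophic replicates 1, 2 and 3, against 62.1 CPM in normal replicate 1 and no count in normal replicates 2 and 3. With the floor of 3 counts over both normal libraries, g11345 was at least 11.5-fold higher in mixotrophic replicates 2 and 3. Normal replicate 1 was 12.3, 10.5 and 9.904 times the mixotrophic mean for g11341, g11343 and g11345.

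Transporters of magnesium, 12 transcripts of the family that carries magnesium across plasma membrane and organelle membranes, were lower where called. Over 4 libraries 8 of 11 tested were lower, with log2 fold changes of -0.98 to -0.57, and 0 higher, and over 6 libraries 5 were lower and 0 higher, or 2 lower with the replicate block. The 5 were g9848, g9849, g7136, g893 and g895, and the block kept the pair of 1 component, g9848 and g9849. DESeq2 called 7 magnesium transporters lower over 4 libraries, and not g7136 (adjusted p = 0.133). The MGT6 hit g9848 had 34.9, 32.4 and 34.38 CPM in mixotrophic replicates 1, 2 and 3 and 89.9, 56.9 and 65.8 CPM in normal replicates 1, 2 and 3. Every mixotrophic library lay below every normal one, and normal replicate 1 was the highest (-0.88 ± 0.13, adjusted p = 1.47e-06 over 4 libraries, and -1.05 ± 0.20, adjusted p = 0.013 over 6). The MGT9 hit g5572 had 40.5, 44.0 and 46.7 CPM in mixotrophic replicates 1, 2 and 3 and 50.4, 81.0 and 96.5 CPM in normal replicates 1, 2 and 3 (-0.98, adjusted p = 2.43e-08 over 4 libraries, adjusted p = 0.0553 over 6). Here normal replicate 1 was the lowest normal library. Its companion g5571 was lower over 4 libraries (-0.75, adjusted p = 2.37e-06).

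A magnesium transporter described by at5g09690, g3548, had 192, 204 and 203 CPM in mixotrophic replicates 1, 2 and 3, against 133 CPM in normal replicate 1 and 325 and 311 CPM in normal replicates 2 and 3. It was lower over 4 libraries (-0.64 ± 0.068, adjusted p = 2.68e-09), but normal replicate 1 lay below the mixotrophic libraries, and the call was lost over 6 (adjusted p = 0.501). In the MGT6 component of g7136, where 1 of 3 tested transporters was called lower, the counts summed over all 9 transcripts of the component, other bins included, were higher by 0.50 log2 units (adjusted p = 0.000356).

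The sodium/proton exchangers, which trade cytosolic sodium or potassium for protons, were mostly not called, with 1 higher, 1 lower and 4 not called of 6 tested over 4 libraries. The NHX6 hit g9369, named after an exchanger of endosomes in Arabidopsis, had 30.0, 34.39 and 30.5 CPM in mixotrophic replicates 1, 2 and 3 and 64.0, 59.8 and 62.7 CPM in normal replicates 1, 2 and 3. The conditions were far apart and the normal libraries close together, with -0.91 ± 0.13 (adjusted p = 1.05e-06) over 4 libraries and -0.96 ± 0.11 (adjusted p = 0.00308) over 6. The NHX2 hit g11873, named after a vacuolar exchanger, was higher over 4 libraries (0.80 ± 0.14, adjusted p = 2.41e-05). Its 52.8, 57.5 and 57.0 CPM in mixotrophic replicates 1, 2 and 3 stood between 68.1 CPM in normal replicate 1 and 27.0 and 38.1 CPM in normal replicates 2 and 3. The call was not made over 6 libraries (adjusted p = 0.531).

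Of the other cation transcripts, both CCX4 hits, cation/calcium exchangers, were lower over 4 libraries (-0.43 for g5768 and -0.76 for g14749), and g14749 was also lower over 6. With the replicate block g5768 was not called over 4 libraries (adjusted p = 0.0565), nor g14749 over 6 (adjusted p = 0.0739). In the bile acid symporter family, g4156 was lower in both fits (-0.66 over 4 libraries, adjusted p = 0.0866 over 6 with the replicate block) and g5684 was higher over 4 (0.42, adjusted p = 0.00537). DESeq2 called none of g5768, g4156 and g5684 over 4 libraries (adjusted p = 0.224, 0.0968 and 0.112). The 3 tested nucleoside transporters of this class were not called, with log2 fold changes of -0.16 to 0.27. Some members of the class are not transporters by their description. The zeta-carotene isomerase hit g5452, an enzyme of carotenoid synthesis, was not called (0.18 ± 0.13, adjusted p = 0.253). The ChaC-like g2495 and g2499 were lower over 4 libraries (-1.08 and -1.11). Counts summed over all 5 transcripts of the ChaC-like component were not called (-0.02, adjusted p = 0.835). The transcript with the highest mean count of the class, g18239, whose description was not used here, had 251, 235 and 242 CPM in mixotrophic replicates 1, 2 and 3 and 466, 277 and 297 CPM in normal replicates 1, 2 and 3. All of its normal libraries lay above all mixotrophic ones, and normal replicate 1 was the highest (-0.27 ± 0.066, adjusted p = 0.00087 over 4 libraries, adjusted p = 0.146 over 6). With upper quartile scaling the class had 8 higher and 14 lower over 4 libraries, instead of 5 and 15. Over 6 libraries 0 of its transcripts were higher at an unadjusted p under 0.05, and DESeq2 called 0 higher.

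**Figure D4:**
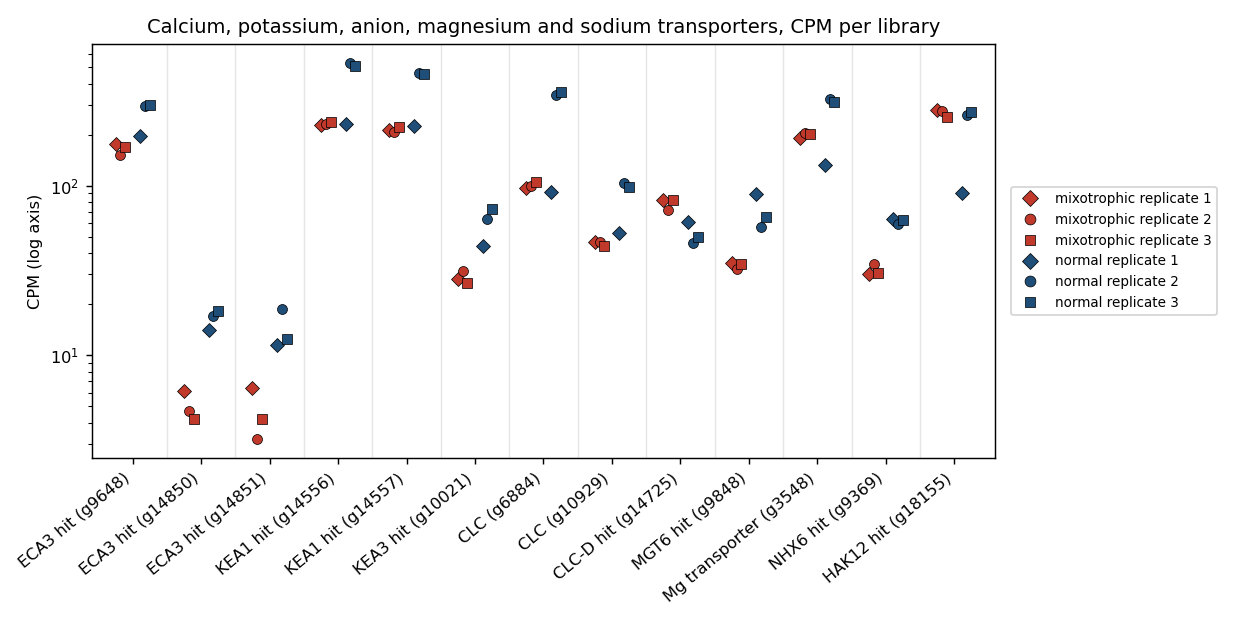
CPM (log axis) of 13 transporters of calcium (ECA3), potassium (KEA1, KEA3, HAK12), anions (CLC), magnesium and sodium (NHX6), with mixotrophic libraries in red left of normal libraries in blue, replicate 1 as diamonds, 2 as circles and 3 as squares. For KEA1 (g14556) and the CLC transcript g6884 the diamond of normal replicate 1, at 230 and 92.4 CPM, lies level with the mixotrophic points, while for NHX6 (g9369) it lies with the other normal libraries at 64.0 CPM.

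Among the potassium transporters, the KEA antiporters, which exchange potassium for protons in plastids and other organelles of plants, were lower in 4 of 5 tested transcripts over 4 libraries and in 2 of 5 over 6. The KEA1 hit g14556, whose Arabidopsis namesake lies in the chloroplast envelope, had 227, 231 and 238 CPM in mixotrophic replicates 1, 2 and 3. It had 230 CPM in normal replicate 1, against 531 and 508 CPM in normal replicates 2 and 3. Normal replicate 1 lay within the mixotrophic range, and the log2 fold change was -1.15 ± 0.062 (adjusted p = 1.24e-15) over 4 libraries and -0.85 ± 0.31 (adjusted p = 0.0901) over 6. Its companion g14557 had -1.09 (adjusted p = 5.11e-15) over 4 libraries.

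The KEA3 hit g10021, whose Arabidopsis namesake is a thylakoid antiporter, had 28.1, 31.4 and 26.8 CPM in mixotrophic replicates 1, 2 and 3 and 43.9, 64.0 and 72.5 CPM in normal replicates 1, 2 and 3. All mixotrophic libraries lay below all normal ones, with normal replicate 1 the nearest to them (-1.23 ± 0.14, adjusted p = 7.33e-09 over 4 libraries, and -1.04 ± 0.20, adjusted p = 0.0139 over 6). The KEA3 transcript g10025 was also lower in both fits (-1.03 and -0.82). The KEA5 hit g835 was not called, at -0.10 ± 0.065 (adjusted p = 0.218). Counts summed over all 4 transcripts of its component were lower (-0.33 log2 units, adjusted p = 0.000116).

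The Shaker channel AKT1, an inward potassium channel of plants, had a pair of transcripts in 1 component that were called higher over 4 libraries. For g17727 the levels were 24.5, 26.5 and 23.5 CPM in mixotrophic replicates 1, 2 and 3, against 33.0 CPM in normal replicate 1 and 14.1 and 16.9 CPM in normal replicates 2 and 3. Normal replicate 1 was above every mixotrophic library, and the fold change was 0.68 ± 0.20 (adjusted p = 0.00517) over 4 libraries and 0.22 ± 0.34 (adjusted p = 0.703) over 6. The other, g17728, had 0.50 (adjusted p = 0.0324) over 4 libraries and was not called with the replicate block (adjusted p = 0.0519). DESeq2 called neither of them over 4 libraries (adjusted p = 0.104 for g17727). The uptake transporter of the HAK family, g18155, had 280, 277 and 255 CPM in mixotrophic replicates 1, 2 and 3, against 90.7 CPM in normal replicate 1 and 261 and 272 CPM in normal replicates 2 and 3. Normal replicate 1 lay below the 5 other libraries, which lay close together, and neither fit called it (adjusted p = 0.973 and 0.51).

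A pair of transcripts of the potassium class whose descriptions were not used here followed the order seen for DUR3. For g17511 the levels were 22.6, 18.4 and 21.0 CPM in mixotrophic replicates 1, 2 and 3, against 88.8 CPM in normal replicate 1 and 5.82 and 5.74 CPM in normal replicates 2 and 3. Its partner g17509 had 21.3, 21.6 and 15.1 CPM in mixotrophic replicates 1, 2 and 3, against 92.6 CPM in normal replicate 1 and 7.89 and 5.40 CPM in normal replicates 2 and 3. Both were higher over 4 libraries (1.76 and 1.50) and had negative fold changes over 6 (-0.72 and -0.89, not called). No call in the potassium class was higher over 6 libraries, and 0 were higher at an unadjusted p under 0.05. DESeq2 likewise called 0 higher over 6 libraries, and over 4 it called 2 higher, g17509 and g17511. Without mixotrophic replicate 2, the 4 higher calls over 4 libraries were reduced to 2.

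The anion class was made up of chloride channels of the CLC family, which work as channels or as chloride/proton or nitrate/proton exchangers of organelles, a family of P-loop ATPases and an uncounted voltage-dependent anion channel. Of 9 CLC transcripts, 6 were lower and 1 higher over 4 libraries, and 0 lower and 1 higher over 6. At an unadjusted p under 0.05, 6 of the CLC transcripts were lower over 6 libraries, and DESeq2 called 3 lower. The transcript g6884, described by at1g55620, had 96.5, 100 and 106 CPM in mixotrophic replicates 1, 2 and 3, against 92.4 CPM in normal replicate 1 and 341 and 357 CPM in normal replicates 2 and 3. Normal replicate 1 was just below the mixotrophic libraries and 0.265 times the mean of the other normal ones. The fold change was -1.76 ± 0.072 (adjusted p = 1.47e-18) over 4 libraries and -1.36 ± 0.48 (adjusted p = 0.0839) over 6.

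The exception in direction was the CLC-D hit g14725, named after a channel of the trans-Golgi network in Arabidopsis. It had 81.8, 71.5 and 82.7 CPM in mixotrophic replicates 1, 2 and 3 and 61.0, 45.7 and 49.6 CPM in normal replicates 1, 2 and 3. The conditions did not overlap, with 0.69 ± 0.12 (adjusted p = 1.33e-05) over 4 libraries and 0.60 ± 0.15 (adjusted p = 0.0332) over 6, or adjusted p = 0.0533 with the replicate block. The other CLC-D hits, g6902 and g6903 from 1 component, were lower over 4 libraries and not called over 6. Over 4 libraries they had -0.55 (adjusted p = 8.86e-05) and -0.45 (adjusted p = 0.000411). The P-loop ATPases g6791, g6792 and g6793, from 1 component, were lower over 4 libraries, with log2 fold changes of -1.04 to -0.46, and not called over 6. The transcript g6792 had 83.3, 75.4 and 76.9 CPM in mixotrophic replicates 1, 2 and 3, against 54.5 CPM in normal replicate 1 and 154 and 159 CPM in normal replicates 2 and 3. Here, too, normal replicate 1 was below the mixotrophic libraries.

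Calcium pumps of the ER type, P-type ATPases that load calcium into the endoplasmic reticulum and Golgi, were lower in 4 of 4 transcripts over 4 libraries and in 3 of 4 over 6. The ECA3 hit g9648 had 175, 152 and 168 CPM in mixotrophic replicates 1, 2 and 3 and 197, 297 and 299 CPM in normal replicates 1, 2 and 3. The conditions did not overlap, though normal replicate 1 lay nearer to the mixotrophic libraries (-0.90 ± 0.070, adjusted p = 5.12e-12 over 4 libraries, and -0.66 ± 0.18, adjusted p = 0.0406 over 6, or 0.0846 with the replicate block). A second ECA3 component had g14850 at 6.18, 4.67 and 4.19 CPM in mixotrophic replicates 1, 2 and 3 and 14.2, 17.0 and 18.2 CPM in normal replicates 1, 2 and 3. Its conditions were apart in every library, with -1.98 ± 0.30 (adjusted p = 1.37e-06) over 4 and -1.69 ± 0.24 (adjusted p = 0.00522) over 6 libraries. Its companion g14851 was also lower in both fits (-2.06 and -1.60). The ECA2 hit g5549, with the highest mean count of the class, was called lower over 4 libraries (-0.20 ± 0.064, adjusted p = 0.00991) and not over 6 (adjusted p = 0.502).

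The tested calcium/proton antiporters of the CAX family, which fill vacuoles with calcium in exchange for protons, were not called. Over 4 libraries g2230 had 0.20 ± 0.096 (adjusted p = 0.0702) and g2232 had 0.09 ± 0.093 (adjusted p = 0.45). Counts summed over all 5 transcripts of their component, whether of this class or not, were lower (-1.31 log2 units, adjusted p = 2.46e-13). The class also holds PICOT-domain proteins, glutaredoxin-like proteins rather than transporters. The CXIP hit g1719, named after a protein that interacts with CAX1 in Arabidopsis, had 58.0, 53.55 and 63.4 CPM in mixotrophic replicates 1, 2 and 3 and 17.2, 34.06 and 33.7 CPM in normal replicates 1, 2 and 3. It was higher in both fits (0.78 ± 0.14, adjusted p = 1.6e-05, and 1.07 ± 0.27, adjusted p = 0.0328). The other, g481, was lower over 4 libraries (-0.86 ± 0.10, adjusted p = 2.53e-08). Upper quartile scaling gave the calcium class 2 higher and 4 lower over 4 libraries, instead of 1 and 5.

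All 14 transcripts of the channels gated by cyclic nucleotides or passing calcium came from 1 component. No read was counted for 7 of them and 2 were tested, with 0 called in either fit, 0 at an unadjusted p under 0.05 and 0 by DESeq2. The one with the highest mean count, g14277, had 0.426, 4.18 and 3.91 CPM in mixotrophic replicates 1, 2 and 3 and 1.36, 7.48 and 4.39 CPM in normal replicates 1, 2 and 3. Replicate 1 was the lowest in both conditions, and g14277 and g14279 are in the group low in replicate 1. Over 4 libraries the log2 fold change of g14277 was -0.51 ± 0.41 (adjusted p = 0.293).

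Normal replicate 1 was at least 2-fold above normal replicates 2 and 3 for 7 of the 88 transporters tested over 6 libraries, with 7.29% of all tested transcripts, and at least 2-fold below them for 11, with 14.6% of all. By the same measure, mixotrophic replicate 1 was above the other mixotrophic libraries for 0 of the 88 (0% of all) and below them for 2 (6.71% of all), the channel transcripts g14277 and g14279. The 7 above were the 3 DUR3 transcripts, the HA7 hit, g17509, g17511 and g8286, a cation transporter with 97.8 CPM in normal replicate 1 and 22.8 and 17.9 CPM in normal replicates 2 and 3. The 11 below were g6884, g6791, g6792, g18155, g3548, g14556, g14557, g2495, the HA4 hit g5742 and the channel pair. No V-ATPase or calcium transporter tested over 6 libraries was among the 18. The V-ATPase subunit E transcripts g17242 and g17243, in the group low in replicate 1, were not tested over 6 libraries. For them normal replicate 1 lay -2.0 and -2.38 log2 units from the range of normal replicates 2 and 3.

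In 17 of the 18, the departure of normal replicate 1 had the same direction as that of the mixotrophic mean, and the exception was g18155. The same held for 2424 of the 2699 transcripts of the whole table that were apart in this way (89.8%). Both departures are measured from normal replicates 2 and 3, so they are not independent. For g8286 the mixotrophic mean, 22.1 CPM, lay within the range of these 2 libraries. For g14279 it was 2.99 CPM, or 4.37 CPM without replicate 1, against a mean of 4.09 CPM in normal replicates 2 and 3. In 7 of 7 above, normal replicate 1 went past the highest mixotrophic library. Of the 11 below, it lay under the mixotrophic range on the same side in 5, within that range in 4, between the mixotrophic and the other normal libraries in 1 and away from both in 1. Of these 18, 14 were called over 4 libraries and 0 over 6. They were chosen by the distance of normal replicate 1 from the other normal libraries, which itself widens the normal spread over 6. The loss of their calls is thus partly built into the choice, and these counts were not made for the whole table. With all 6 libraries, 19 of the 88 transporters were higher in every mixotrophic than in every normal library and 26 were lower, beside 24.1% and 24.5% of all tested transcripts.

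**Figure D5:**
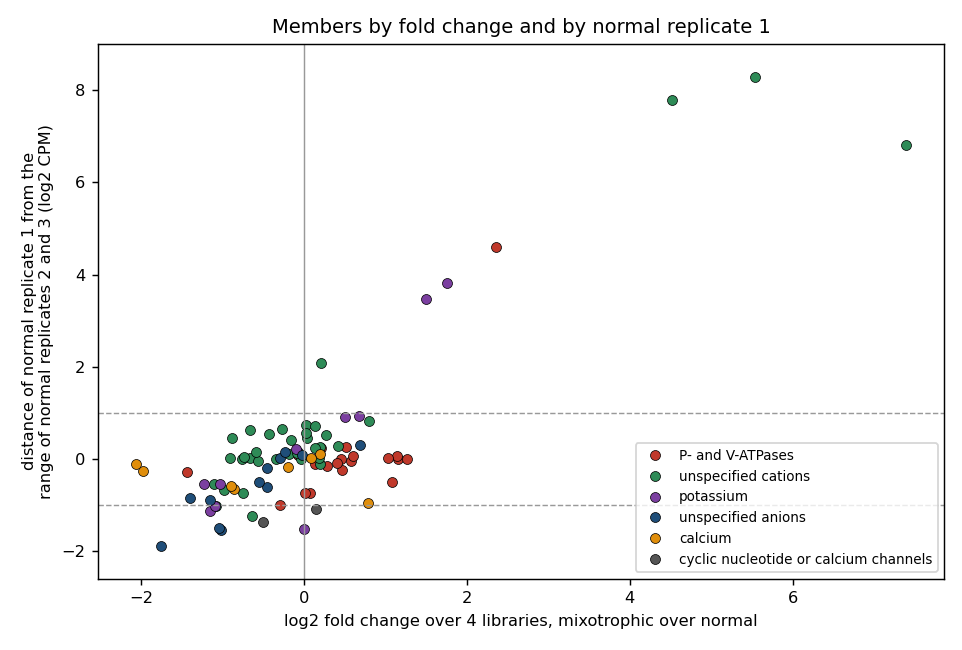
Log2 fold change over 4 libraries (mixotrophic over normal, horizontal axis) and distance of normal replicate 1 from the nearer of normal replicates 2 and 3 in log2 CPM (vertical axis, 0 within their range) for the 88 transporters tested in both fits, coloured by class. Dashed lines mark 1 log2 unit, beyond which lie 7 transporters above and 11 below. Both axes use normal replicates 2 and 3, so they are not independent, and the horizontal place of g11345 depends on the prior count.

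Other proton-linked transport and ATP synthesis transcripts are given for context by their counts of calls. Over all transcripts tested, 28.6% were higher and 29% lower over 4 libraries, and 13.3% and 15.2% over 6. The lists were not tested against these shares. Of 37 tested sugar transport transcripts, the class of the proton-coupled hexose carriers, 10 were higher and 7 lower over 4 libraries, and 5 and 1 over 6. Normal replicate 1 was at least 2-fold below the other normal libraries for 16 of the 37 and above them for 3 (14.6% and 7.29% of all). Mixotrophic replicate 1 was at least 2-fold below the other mixotrophic libraries for 10 (6.71% of all). Of all 40 sugar transport transcripts, 9 were in the group low in replicate 1 (4.87% of all). The proton-pumping pyrophosphatase, an enzyme that acidifies the vacuole from pyrophosphate, had 1 higher and 0 lower of 3 in both fits. The mitochondrial F1-ATPase had 4 of 4 higher in both fits, and the plastid ATP synthase 4 higher and 2 lower of 10 over 4 libraries. Nitrate transporters, 9 transcripts from 3 components, had 3 higher and 0 lower of 7 over 4 libraries and 0 called over 6. For 5 of the 7, normal replicate 1 was at least 2-fold above the other normal libraries, with 7.29% of all tested transcripts. Ammonium transporters had 2 higher and 2 lower of 8, sulphate transporters 2 and 3 of 7, and phosphate transporters 6 and 9 of 19 over 4 libraries.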

How the data were processed

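The authors assembled the reads of all samples de novo with Trinity, predicted coding transcripts with AUGUSTUS, and aligned and counted reads with Subread and featureCounts at default settings, per the study's methods. The submitters' processing notes name BWA and DESeq2. Of the deposited files, the table of raw counts per transcript for 6 libraries was used. The authors' own differential expression and enrichment tables hold their fold changes and p-values and were not used. The library kit was directional, but use of strand in counting is not stated, so antisense reads cannot be told apart. Of the transporters' descriptions, 24 (711 in the whole table) are removed in the copy used here.

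Counts were analysed with edgeR 4.0.16 under R 4.3.3 (TMM, low counts removed by filterByExpr at 10, glmQLFit, two-sided glmQLFTest, Benjamini-Hochberg over all transcripts tested, adjusted p under 0.05). The fits were run on the whole table, over replicates 2 and 3 of each condition (4 libraries) and over all 6. The code was also run on simulated counts, drawn independently per library and without a departure of replicate 1. That run therefore does not bear on how the fits behave with such a departure. The standard error was derived as log2 fold change over the square root of F. Distances between libraries used log2 CPM with a prior count of 2. For the group low in replicate 1, each library of replicates 2 and 3 had to hold 1 CPM or more and exceed both libraries of replicate 1 by 2-fold or more, after adding 0.5 CPM. Alternatives were DESeq2 1.42.0, RLE and upper quartile scaling, a minimum of 10 counts in every library, omission of the filter, sums per component, the replicate block and leaving out each library.

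The methods describe a pre-culture divided between conditions and 3 independent repeats, without saying which libraries share one. Over 6 libraries, deviations of same-numbered libraries from their condition means correlated at 0.703, 0.625 and 0.543. Deviations from a mean of 3 libraries cancel out, so a departure shared by the replicate 1 libraries raises all 3 correlations. Over 4 libraries the correlation was -0.178, so pairing of replicate 2 with 2 and of 3 with 3 was not shown. The replicate block rests on that pairing as an assumption. Where libraries do not come from separate cultures, p-values measure technical spread only.

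The transporters, their roles, the other lists and the named transcripts were chosen with earlier results of these data known. Named are, per class, the 3 higher and 3 lower with the smallest adjusted p over 4 libraries and the highest mean count, every tested P- and V-ATPase, and the 5 with normal replicate 1 farthest above and below. Some other transcripts of their components or with the same best hit, and members of counts of 5 or fewer, are named too. Roles follow the deposited descriptions, which give the best hit, mostly in Arabidopsis, and not a tested function. Flavonoid and cell wall bins, further markers of land plants, summed to 51.4, 348 and 456 CPM and 15.3, 68.0 and 86.9 CPM in mixotrophic and to 43.9, 521 and 343 CPM and 13.4, 101 and 76.9 CPM in normal replicates 1, 2 and 3. Rubisco small subunit transcripts summed to 3715, 3969 and 4207 CPM in mixotrophic and 2384, 2428 and 2259 CPM in normal replicates 1, 2 and 3. In the group low in replicate 1 were 10 of 14 flavonoid, 5 of 6 cell wall and 1 of 5 Rubisco small subunit transcripts.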

Additional observations from a re-analysis of the deposited data

How the results depend on the processing

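Over 4 libraries the counts of transporters called, 25 higher and 35 lower, stayed between 19 and 30 higher and between 30 and 38 lower under DESeq2, RLE and upper quartile scaling, a minimum of 10 counts in every library, omission of the filter and leaving out 1 library. Of all 12389 transcripts tested, DESeq2 called 2480 higher and 2598 lower, and upper quartile scaling 3864 and 3320. The main fit called 3549 higher and 3593 lower. With counts summed per component, 2365 of all 7763 components tested were higher and 2373 lower. For the transporters, counts summed per component called 21 components higher and 25 lower of 64. These are other units, since 21 of the 46 called include transcripts outside the 6 classes or without a class, and in 3 no read was counted for a transporter. All 6 libraries gave 14 and 14, and by class 0 lower P- and V-ATPases, 0 higher and 9 lower cation, 0 higher and 2 lower potassium, 0 lower anion and 3 lower calcium transporters. The cation class had 8 higher with upper quartile scaling, 2 higher with at least 10 counts in every library and 9 lower with sums per component. The calcium class had 2 higher with upper quartile scaling, with at least 10 counts in every library and with a crossed replicate block, which was chosen after seeing the data. DESeq2 called 2 potassium transporters higher. The cause of these changes was not tested.

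Leaving out 1 of the 4 libraries gave 2 to 4 potassium transporters higher, the lowest without mixotrophic replicate 2, and 1 to 2 calcium transporters higher, the highest without mixotrophic replicate 3. Leaving out 1 of the 6 gave 3 to 27 higher and 2 to 35 lower. The replicate block over 4 libraries gave 23 higher and 33 lower (26.9% and 27.3% of all transcripts), and the crossed block 26 and 35 (30.2% and 30.8%). The block over 6 libraries gave 6 and 7 (9.97% and 10.5%). Over 6 libraries it lost 7 of the 12 V-ATPase calls. Asking for a 4-fold distance of normal replicate 1 left 0 transporters below. With all 6 libraries the fold change turned negative for g1690 (-0.90), g11341 (-2.06), g11343 (-1.83), g11345 (-1.75), g17511 (-0.72) and g17509 (-0.89), and leaving out 1 of the 6 gave ranges of -1.43 to 2.34 for g1690, -2.64 to 4.52 for g11341, -2.41 to 5.58 for g11343, -2.33 to 7.48 for g11345, -1.22 to 1.83 for g17511 and -1.40 to 1.55 for g17509, each highest without normal replicate 1. With 2 or 3 libraries a group, low transcripts limit what could be called, and 38 of 127 were not tested over 4 libraries.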
